A study of Mus musculus with 4 samples.

Results

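Transcripts of 9 genes that let white blood cells hold on to a vessel wall were followed across the liver libraries of ob/ob mice: the endothelial adhesion molecules Icam1, Icam2 and Vcam1, the selectins Selp and Sele, and the integrin chains Itgb2, Itgal, Itgam and Itga4. They were taken by symbol from the 24346 symbols listed for each library, and all 9 were found, each above 0 in every library. The mice were males of the obese ob/ob strain, which lacks leptin, so that no group is a lean or leptin-replete control. They were 6 weeks old when feeding began and were fed for 4 weeks. CD mice received regular chow, CD+7KC mice the same chow with 0.01% 7-ketocholesterol (7KC, an oxidized cholesterol), WD mice a western type diet rich in fat and sucrose, and WD+7KC mice that diet with 0.01% 7KC. Cholesterol was 1% of the diet in every group, the controls included. Each group had 1 library of whole liver, and the number of mice behind a library is not given in the sources used here. No difference between groups therefore has a replicate check, no p-value is given, and diet cannot be told apart from the individual library.

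Blood cells leave the circulation in steps. Selectins on activated endothelium catch leukocytes through sugars carried by ligands such as PSGL-1, the product of Selplg, and the cells roll. Chemokine signals then switch leukocyte integrins to a binding form, and these grip immunoglobulin-like ligands on the endothelium: Itgal and Itgb2 encode the chains of LFA-1, which binds ICAM-1 and ICAM-2, Itgam pairs with Itgb2 to form Mac-1, which binds ICAM-1 and complement fragments, and Itga4 pairs with Itgb1 to form VLA-4, which binds VCAM-1. In the liver much of this happens in the sinusoids, whose lining carries ICAM-1 and has little selectin at rest, and Kupffer cells, the resident macrophages, can carry VCAM-1 and β2 integrins themselves.

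The RefSeq promoter table (GRCm38.p6, the assembly behind mm10) matched 5 of the 9 members, Icam1, Selp, Sele, Itgam and Itga4. The sequences below are shown because Icam1 and Itgam stand for the endothelial and the leukocyte side of the contact, while Selp and Sele, which lie close together on chromosome 1, are the members whose levels ran differently from the rest. Each runs 5′ to 3′ on the plus strand from 250 bases before to 50 bases after the RefSeq start. Capitals mark matches, on either strand, to a loose κB pattern (GGG, any 5 bases, CC), the κB variant GGAANTTCC, the PU box core GAGGAA, the TATA box TATAAA and the AP-1 pattern TGANTCA.
Icam1, chr9:21015690-21015989: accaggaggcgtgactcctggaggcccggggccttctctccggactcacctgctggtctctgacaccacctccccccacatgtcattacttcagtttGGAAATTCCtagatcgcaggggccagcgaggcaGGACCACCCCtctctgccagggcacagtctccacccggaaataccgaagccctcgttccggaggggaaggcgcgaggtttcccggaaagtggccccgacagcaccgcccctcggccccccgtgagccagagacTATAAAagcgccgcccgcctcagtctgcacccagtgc
Itgam, chr7:128062390-128062689: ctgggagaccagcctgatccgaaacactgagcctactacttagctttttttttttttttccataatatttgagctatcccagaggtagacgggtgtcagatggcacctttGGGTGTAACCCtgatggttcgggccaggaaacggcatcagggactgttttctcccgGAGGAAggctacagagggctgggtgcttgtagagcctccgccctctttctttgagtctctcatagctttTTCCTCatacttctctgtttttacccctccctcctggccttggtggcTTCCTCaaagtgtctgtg
Selp, chr1:164115014-164115313: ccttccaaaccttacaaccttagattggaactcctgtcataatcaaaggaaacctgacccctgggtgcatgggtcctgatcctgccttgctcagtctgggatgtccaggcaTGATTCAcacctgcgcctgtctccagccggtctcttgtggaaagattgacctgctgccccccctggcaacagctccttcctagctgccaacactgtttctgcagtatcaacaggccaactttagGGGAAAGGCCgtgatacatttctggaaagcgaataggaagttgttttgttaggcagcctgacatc
Sele, chr1:164047984-164048283: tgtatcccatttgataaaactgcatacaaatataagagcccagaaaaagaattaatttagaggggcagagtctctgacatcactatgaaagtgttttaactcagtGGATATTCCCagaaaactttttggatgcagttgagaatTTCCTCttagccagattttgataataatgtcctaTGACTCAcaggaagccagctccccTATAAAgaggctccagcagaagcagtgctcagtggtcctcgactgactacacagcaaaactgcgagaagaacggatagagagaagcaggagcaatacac

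Counted with the RefSeq start as 0, Icam1 holds the κB variant from -153 and a TATA box from 13, that is, inside its RefSeq transcript. The gene start given for Icam1 below, 21015985, lies further downstream, near the end of this window, and the TATA box lies before it. Sele holds a TATA box from -49 with an AP-1 match from -73. Of all 32851 promoters in the table, 0.928% hold the κB variant, 50.8% the looser κB pattern, 28.3% the PU box core, 13.6% the TATA box and 7.81% the AP-1 pattern. The looser κB pattern was found in Icam1, Itgam, Selp and Sele, which at that frequency says little, and the PU box core was found at 3 places in Itgam and at 1 in Sele. In Itgam the pair of overlapping κB matches comes from a single stretch. Selp and Sele share an AP-1 match, and Itga4 held none of these patterns in its window. A match describes letters only.

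The authors gave expression as FPKM, in which fragments are scaled to library size and to transcript length, so that genes can be set beside each other. The spacing of the smallest FPKM values gave an estimated depth of between 9468000 and 12144000 fragments per library, or 9.47 to 12.1 reads per kilobase at 1 FPKM. Read numbers and exact 95% intervals given here rest on that estimate, cover counting error only and do not cover the variation between mice. They are approximate for Itgb2, Itgal and Itgam, which have 3, 4 and 2 RefSeq mRNAs. FPKM values summed to between 602059 in WD+7KC and 715605 in CD. The liver genes Alb, Apoa1, Ttr, Cps1 and Cyp2e1 together stood at 42537 to 54694 FPKM, as the tissue label says, with the lowest sum in WD+7KC.

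The members were low to moderate transcripts, with means over the libraries from 0.222 FPKM for Sele to 9.36 FPKM for Vcam1. In 7 of the 9 the highest level was in WD+7KC, as in 29.1% of the 13802 genes above 0 in all 4 libraries, and in Selp and Sele it was in CD, though CD and WD+7KC did not differ beyond counting error in either. For 6 of those 7, all but Icam2, the counting interval of the ratio to the next library lay above 1. Only 3 members, Vcam1, Itgb2 and Itgal, followed the order CD, CD+7KC, WD, WD+7KC from low to high, which 8.06% of those genes had. Of the 27 steps between neighbouring levels within a gene, 13 had an interval above 1 and 14 included 1. For these intervals between neighbouring libraries no share over all genes was computed, so neither count is read as particular to the members.

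**Figure D1:**
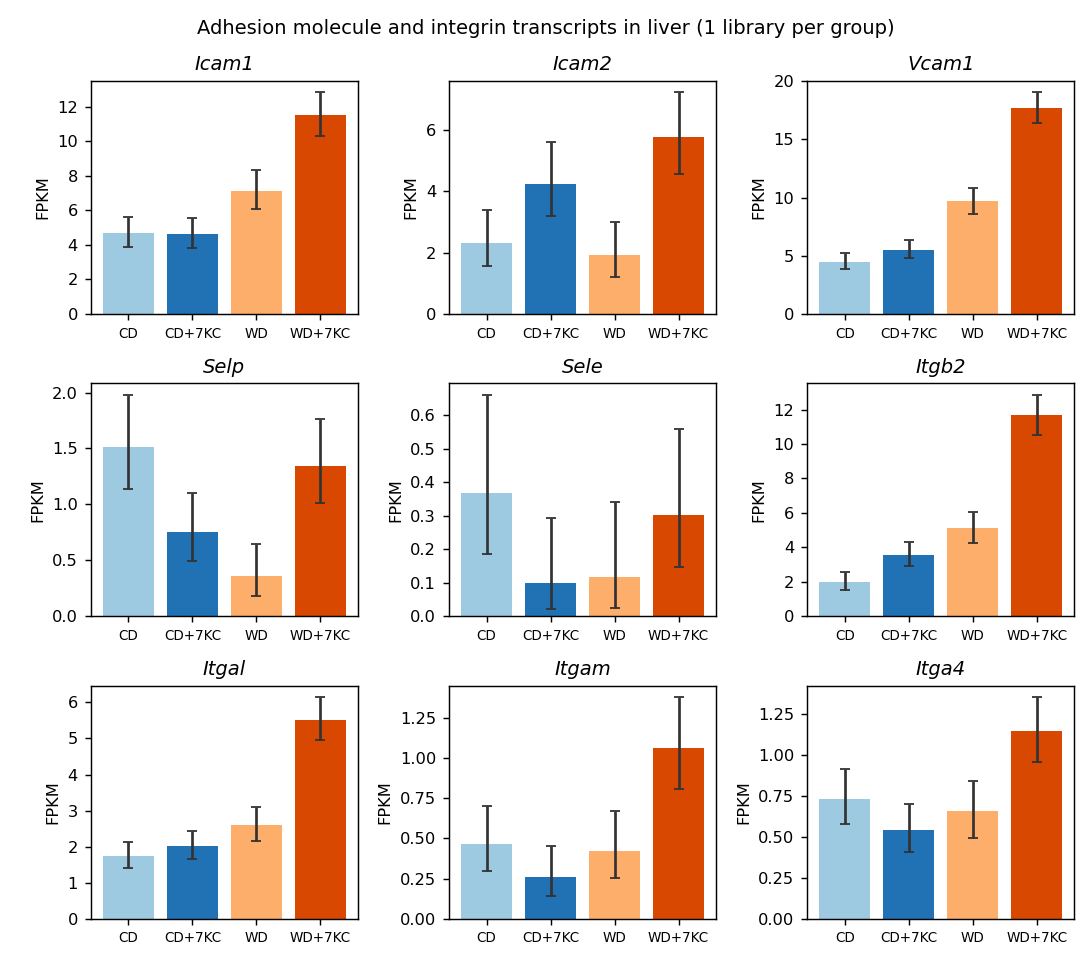
Level of each member in FPKM (vertical axes, each from 0) in the libraries CD, CD+7KC, WD and WD+7KC. Bars are single libraries and whiskers are exact 95% counting intervals, not variation between mice. WD+7KC is the highest bar in 7 panels, while in Selp and Sele the highest bar is CD, and the Sele bars rest on 3 to 11 reads.

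Icam1 (chromosome 9, 21015985 to 21028817, plus strand, GRCm38) encodes ICAM-1, an inducible ligand of LFA-1 and Mac-1. It measured 4.66 FPKM for CD, 4.61 for CD+7KC, 7.14 for WD and 11.5 for WD+7KC. The chow libraries lay within counting error of each other, and both western diet libraries lay above them. Icam1 was 1.61-fold higher in WD+7KC than in WD (95% counting interval 1.33 to 1.96). Between CD+7KC and CD the ratio was 0.988 (0.760 to 1.28).

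Vcam1 (chromosome 3, 116109949 to 116129688, minus strand), the ligand of VLA-4, was the most abundant member. It measured 4.49 FPKM for CD, 5.52 for CD+7KC, 9.71 for WD and 17.7 for WD+7KC, the last from about 703 reads. WD+7KC stood clear of the other libraries, and WD stood clear of both chow libraries. The ratio was 1.82 between WD+7KC and WD (1.59 to 2.10) and 2.16 between WD and CD (1.78 to 2.63). Between CD+7KC and CD it was 1.23, with an interval of 0.995 to 1.52. Vcam1 was level with Icam1 in CD, at 0.962 times its FPKM, and above it elsewhere, at 1.20 times in CD+7KC, 1.36 times in WD and 1.54 times in WD+7KC.

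Icam2 (chromosome 11, 106377656 to 106388075, minus strand) encodes ICAM-2, which endothelium carries without stimulation. It measured 2.33 FPKM for CD, 4.25 for CD+7KC, 1.92 for WD and 5.79 for WD+7KC. Here the libraries parted by 7KC: both 7KC libraries lay above both libraries without it. Between WD+7KC and CD+7KC the ratio was 1.36 (0.936 to 1.97). With the libraries rescaled to equal FPKM sums it was 1.57 (1.08 to 2.28), so a difference by base diet depends on scaling there. The ratio was 3.02 between WD+7KC and WD (1.79 to 5.12) and 1.83 between CD+7KC and CD (1.12 to 2.99). WD and CD differed by less than counting error, with a ratio of 0.824 (0.442 to 1.52). As a result Icam1 was 3.72 times as abundant as Icam2 in WD but 1.08 times as abundant in CD+7KC.

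Selp (chromosome 1, 164115264 to 164150026, plus strand) encodes P-selectin, which endothelium and platelets store and bring to the surface on stimulation. It measured 1.51 FPKM for CD, 0.755 for CD+7KC, 0.359 for WD and 1.34 for WD+7KC, from about 53.8, 26.9, 11 and 52.8 reads. CD and WD+7KC were alike within counting error and WD was lowest. Selp was 3.75-fold higher in WD+7KC than in WD (1.94 to 7.98), the largest ratio among the members in that comparison, and 2.01-fold lower in CD+7KC than in CD (1.24 to 3.32). It was 4.22-fold lower in WD than in CD (2.19 to 8.98). These ratios share libraries: the low value in WD enters both the first and the last.

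Sele (chromosome 1, 164048234 to 164057677, plus strand) encodes E-selectin, which cytokines induce on endothelium. It measured 0.369 FPKM for CD, 0.10 for CD+7KC, 0.117 for WD and 0.303 for WD+7KC. CD and WD+7KC were again the higher pair, but with 11, 3, 3 and 10 reads no difference between a pair of libraries was detectable at this depth. The ratio of WD+7KC to WD was 2.59 with an interval of 0.669 to 14.7, and that of CD+7KC to CD was 0.272 with an interval of 0.0487 to 1.03.

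Itgb2 (chromosome 10, 77530252 to 77565708, plus strand) encodes the β2 chain that all β2 integrins share and that leukocytes carry. It measured 2.01 FPKM for CD, 3.57 for CD+7KC, 5.12 for WD and 11.7 for WD+7KC. Every step in that order had a counting interval above 1, which held for no other member, and the 5.79-fold span from lowest to highest was the widest. Itgb2 was 2.28-fold higher in WD+7KC than in WD (1.87 to 2.80) and 1.77-fold higher in CD+7KC than in CD (1.29 to 2.48). WD was 2.54-fold above CD (1.87 to 3.51).

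Itgal (chromosome 7, 127296260 to 127335138, plus strand) encodes the α chain of LFA-1, found on lymphocytes and myeloid cells. It measured 1.73 FPKM for CD, 2.02 for CD+7KC, 2.60 for WD and 5.52 for WD+7KC. WD+7KC stood apart and each of the other neighbouring pairs had an interval that included 1. WD lay above CD beyond counting error, with an interval of the ratio from 1.14 to 1.98. Itgal was 2.12-fold higher in WD+7KC than in WD (1.72 to 2.63), and between CD+7KC and CD the ratio was 1.16 (0.877 to 1.54).

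Itgam (chromosome 7, 128062640 to 128118491, plus strand) encodes the α chain of Mac-1, found on monocytes, neutrophils and some macrophages. It measured 0.466 FPKM for CD, 0.262 for CD+7KC, 0.424 for WD and 1.06 for WD+7KC, from about 22.9, 13, 18 and 57.8 reads. WD+7KC was above the other libraries, which did not differ beyond counting error. Itgam was 2.51-fold higher in WD+7KC than in WD (1.46 to 4.53). Between CD+7KC and CD its ratio was 0.563 (0.262 to 1.16).

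Itga4 (chromosome 2, 79255426 to 79333123, plus strand) encodes the α4 chain of VLA-4, found on lymphocytes and monocytes. It measured 0.734 FPKM for CD, 0.544 for CD+7KC, 0.657 for WD and 1.15 for WD+7KC. The first 3 of these did not differ beyond counting error, and WD+7KC was 1.75-fold above WD (1.28 to 2.43). Its partner Itgb1, which many cell types express, was far more abundant and nearly level, at 47.0 to 58.7 FPKM, or 51.1 times Itga4 in WD+7KC and 71.8 to 86.3 times Itga4 in the other libraries. The alternative partner Itgb7, which forms the gut-homing integrin with α4, measured 0.404 FPKM for CD, 0.293 for CD+7KC, 0.384 for WD and 1.26 for WD+7KC.

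The α chains that pair with β2 can be set against it per length. Itgal, Itgam, Itgax and Itgad, the last 2 encoding the α chains of the other β2 integrins, summed to 2.86 FPKM for CD, 2.90 for CD+7KC, 4.27 for WD and 8.99 for WD+7KC. This was 1.42 times the Itgb2 level in CD and 0.810, 0.834 and 0.770 times that level in CD+7KC, WD and WD+7KC. CD is the library that differed: its α chain sum was close to that of CD+7KC while its Itgb2 was lower. Itgal made up 60.5% of the sum for CD, 69.7% for CD+7KC, 61.0% for WD and 61.4% for WD+7KC. Itgam made up 16.3%, 9.07%, 9.93% and 11.8% in the same order, and Itgax, a chain of dendritic cells and some macrophages, 23.2%, 21.2%, 29.1% and 26.3%. Itgad was listed at 0 in CD, CD+7KC and WD and at 0.0436 FPKM in WD+7KC, about 2 reads.

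**Figure D2:**
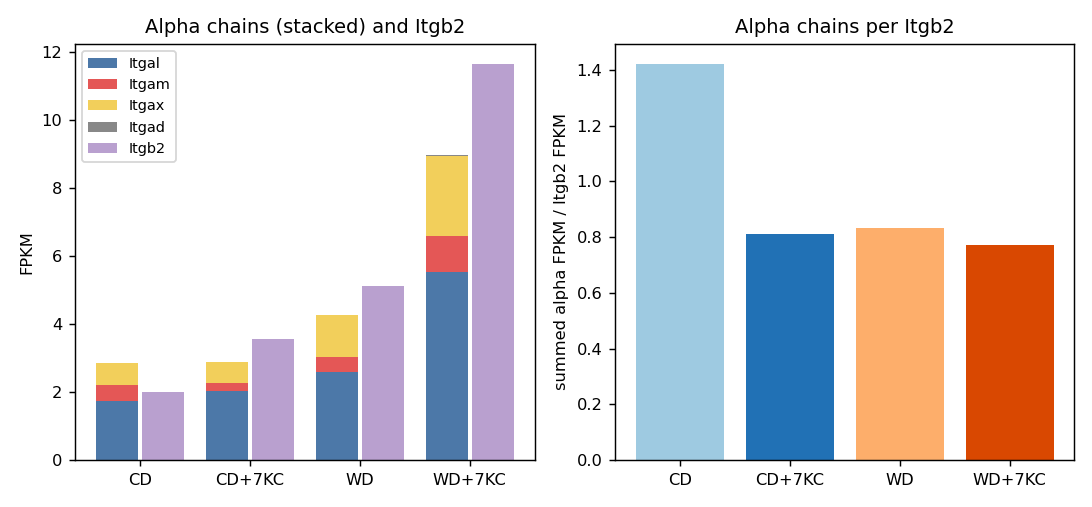
Left, FPKM of Itgal, Itgam, Itgax and Itgad stacked beside FPKM of Itgb2 in each library. Right, the summed α chain FPKM divided by Itgb2 FPKM, which is 1.42 in CD and 0.770 to 0.834 in the other libraries, 1 library per bar.

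The study asked what 7KC adds to a western diet, and for that comparison all 9 members were higher in WD+7KC than in WD, as were 50.2% of the 15753 genes above 0 in either library. A log2 fold change, computed here from FPKM + 0.1 and so understated for low genes, was above 1 for 5 members: Selp with 1.65, Icam2 with 1.55, Itgb2 with 1.17, Itgam with 1.15 and Itgal with 1.06. That share compares with 6.21% of all genes tested, and with 2.71% of the 10686 genes that averaged 1 FPKM or more, of which 3 of 5 members (Icam2, Itgb2 and Itgal) were past it. No member was below -1, where 2.79% of all genes tested and 0.767% of those averaging 1 FPKM or more were. The smallest value was 0.68, for Icam1. The median of the members was 1.06 against 0.0021 for all genes tested. Because the FPKM sum was lowest in WD+7KC, rescaling the libraries to equal sums moved the median of all genes to 0.21 and that of the members to 1.27. The counting interval of the ratio lay above 1 for 8 members and included 1 for Sele; it lay above 1 for 15.7% of the 13181 genes for which it could be computed.

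7KC added to chow gave a divided picture. In CD+7KC relative to CD, 4 members were higher and 5 lower, with a median log2 fold change of -0.017 against -0.0012 for the 15684 genes tested. None was above 1, where 3.84% of genes were, and 1 was below -1, Sele with -1.23, where 2.91% of genes were. Itgb2 at 0.80 and Icam2 at 0.84 were the highest, and their counting intervals lay above a ratio of 1. Selp at -0.92 was the other value whose interval excluded 1. Over 13067 genes the interval lay above 1 for 12.5% and below 1 for 13.8%, so that 2 members above and 1 below is close to the share over all genes. The Icam1 value of -0.017 became 0.023 after rescaling to equal sums, so that its sign is not determined.

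The ratio of ratios, that is the fold of WD+7KC over WD divided by the fold of CD+7KC over CD, was above 1 for all 9 members. This was so for 48.9% of the 13802 genes above 0 in all 4 libraries. The value was 9.54 for Sele (exact conditional 95% counting interval 1.21 to 86.2) and 7.52 for Selp (3.20 to 18.4), an order that turns with a pseudocount, and then Itgam had 4.45 (1.74 to 11.6), Itga4 2.36 (1.47 to 3.88), Itgal 1.82 (1.28 to 2.60), Icam1 1.63 (1.17 to 2.27) and Vcam1 1.48 (1.15 to 1.91). The interval lay above 1 for these 7 members and for 12.7% of the 13067 genes with an interval. For Icam2 at 1.65 (0.789 to 3.40) and Itgb2 at 1.28 (0.868 to 1.88) the interval included 1. These are the members whose interval lay above 1 for 7KC under either diet.

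**Figure D3:**
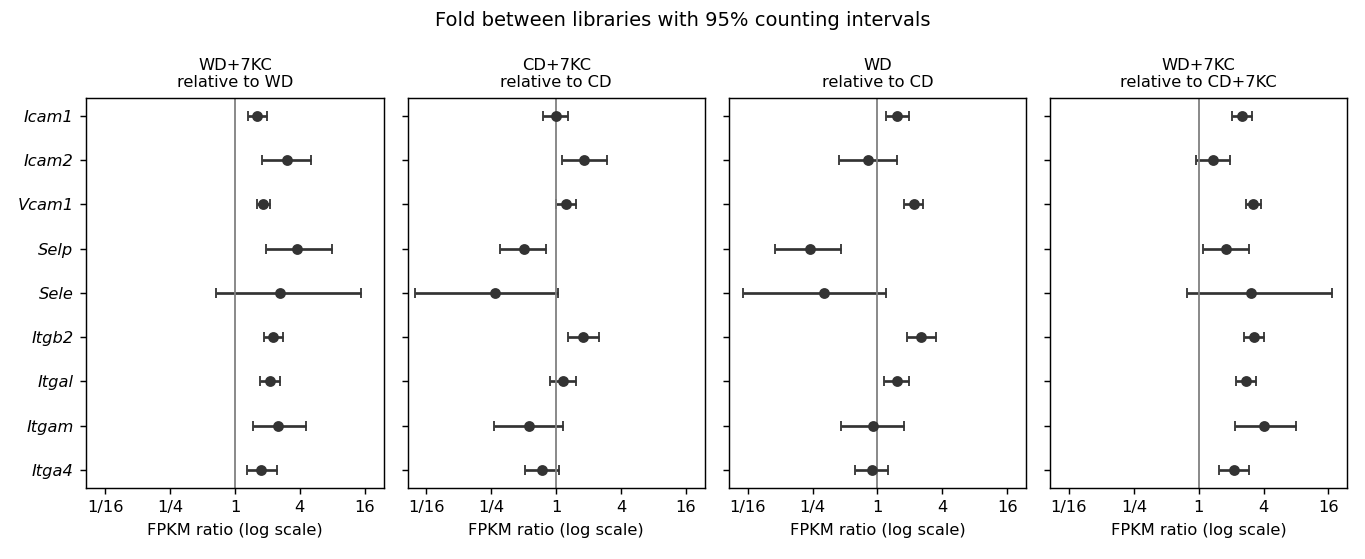
Ratio of FPKM between libraries for each member (horizontal axes, log scale; grey line at 1) in the comparisons WD+7KC relative to WD, CD+7KC relative to CD, WD relative to CD and WD+7KC relative to CD+7KC. Points are ratios of single libraries and whiskers exact 95% counting intervals. All points lie right of 1 in the first and last panels, while points fall on either side in the middle panels.

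The change of base diet without 7KC also divided the members. In WD relative to CD, 4 were higher and 5 lower, with a median log2 fold change of -0.11 against 0.0097 for the 15597 genes tested. The counting interval of the ratio excluded 1 for 5 members. It lay above 1 for Icam1, Vcam1, Itgb2 and Itgal, and below 1 for Selp. For Icam2, Sele, Itgam and Itga4, which were also lower, it included 1. The share of all genes with such an interval is not given for this comparison. Itgb2 at 1.30 and Vcam1 at 1.10 were above 1, as were 5.31% of genes, and Selp at -1.82 and Sele at -1.11 were below -1, as were 4.38%. With 7KC in both diets, all 9 members were higher in WD+7KC than in CD+7KC, with a median of 1.30 against 0.0026 for the 15898 genes tested. Here 6 members, Itgam and Itgb2 with 1.68, Vcam1 with 1.66, Itgal with 1.41, Icam1 with 1.30 and Sele with 1.01, were above 1, against 8.01% of genes. The counting interval of the ratio lay above 1 for 7 members, against 22.5% of 13267 genes, and included 1 for Icam2 and Sele. No member was below -1, where 4.61% of genes were.

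Markers of the cells that carry these molecules moved as well, and in bulk liver more cells of a type and more RNA per cell cannot be told apart. The 12 endothelial markers summed to 84.9 FPKM for CD, 115 for CD+7KC, 66.8 for WD and 185 for WD+7KC, none at 0, and all 12 had a log2 fold change above 0 in WD+7KC relative to WD, the median being 1.52. Icam2 and Selp lay 0.03 and 0.14 above that median, while Icam1 and Vcam1 lay 0.83 and 0.65 below it. In CD+7KC relative to CD 11 of the 12 endothelial markers were higher, with a median of 0.31, while Selp and Sele lay 1.23 and 1.54 below that median (-1.23 and -1.54). In WD relative to CD 3 of the 12 endothelial markers were higher, with a median of -0.29, and Icam1 and Vcam1 were higher by 0.60 and 1.10. Because endothelial markers were lowest in WD, WD+7KC was also set against CD: 7 members were then higher and 2, Selp and Sele, lower, with -0.16 and -0.22 on the log2 scale. Rescaled to equal sums Selp was at 0.072 and Sele at -0.026, so that Selp and Sele were near level between these libraries.

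The 12 macrophage and Kupffer cell markers, among them Adgre1, Clec4f and Cd68, summed to 266 FPKM for CD, 403 for CD+7KC, 455 for WD and 858 for WD+7KC. Vcam1, Itgb2 and Itgal had the order of this sum, but not every marker did. Adgre1, Clec4f, Vsig4 and Timd4 were higher in CD+7KC than in WD, unlike the other markers of the list. All 12 had a positive log2 fold change with 7KC under either diet, the median being 0.91 in WD+7KC relative to WD and 0.59 in CD+7KC relative to CD. Itgb2, Itgam and Itgal lay 0.27, 0.24 and 0.15 above the macrophage median in WD+7KC relative to WD, and Itga4 lay 0.18 below it (-0.18). In CD+7KC relative to CD, Itgb2 lay 0.21 above the macrophage median, and Itgal, Itga4 and Itgam lay below it (-0.38, -0.96 and -1.23). The ratios of Itgal, Itga4 and Itgam in that comparison had counting intervals that included 1. The pan-leukocyte genes, such as Ptprc, which encodes CD45, had 12 of 12 higher in WD+7KC relative to WD (median 0.96), from Was at 1.64 down to Lcp1 at 0.54, and 10 of 12 higher in CD+7KC relative to CD (median 0.21).

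Markers of other cell types were read in the same way. The 8 T cell genes measured summed to 0.984 to 3.52 FPKM, the 6 B cell genes to 1.46 to 3.34, the 6 NK cell genes to 0.651 to 3.44 and the 6 dendritic cell genes to 2.23 to 3.22. In WD+7KC relative to WD, 6 of 8 T cell, 4 of 6 B cell, 1 of 6 NK cell and 4 of 6 dendritic cell genes were higher, with medians of 0.06, 0.32, -0.075 and 0.24. The 8 neutrophil genes summed to 15.5 to 21.8 FPKM, mostly from S100a8 and S100a9. S100a8, the highest of the list by change, went from 4.58 FPKM in WD to 11.1 in WD+7KC, or 1.26 on the log2 scale from about 12.4 and 38.7 reads. S100a9 was at -0.089, and Mpo was listed at 0 in all 4 libraries. Of the 7 neutrophil genes tested, 3 were higher in WD+7KC than in WD. The 6 platelet genes summed to 3.21 to 6.77 FPKM and none was higher in WD+7KC than in WD. Their reads were few: Itga2b had the most, with 31.0 for WD and 28.9 for WD+7KC, and Gp1bb had 1.7 and 0. Selp, which platelets also hold, was higher in WD+7KC. The 5 hepatocyte markers had negative values for WD+7KC relative to WD, the median being -0.49, opposite in direction to the members. With equal sums the median was -0.28, and Cps1 turned to 0.088 while the others stayed negative. In CD+7KC relative to CD 0 of 5 were higher (median -0.23). Stellate cell markers had 1 of 7 and cholangiocyte markers 4 of 5 higher in WD+7KC, the largest by level being Spp1, which other cells also make. The part of any of these cell types in the members' levels was not tested.

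**Figure D4:**
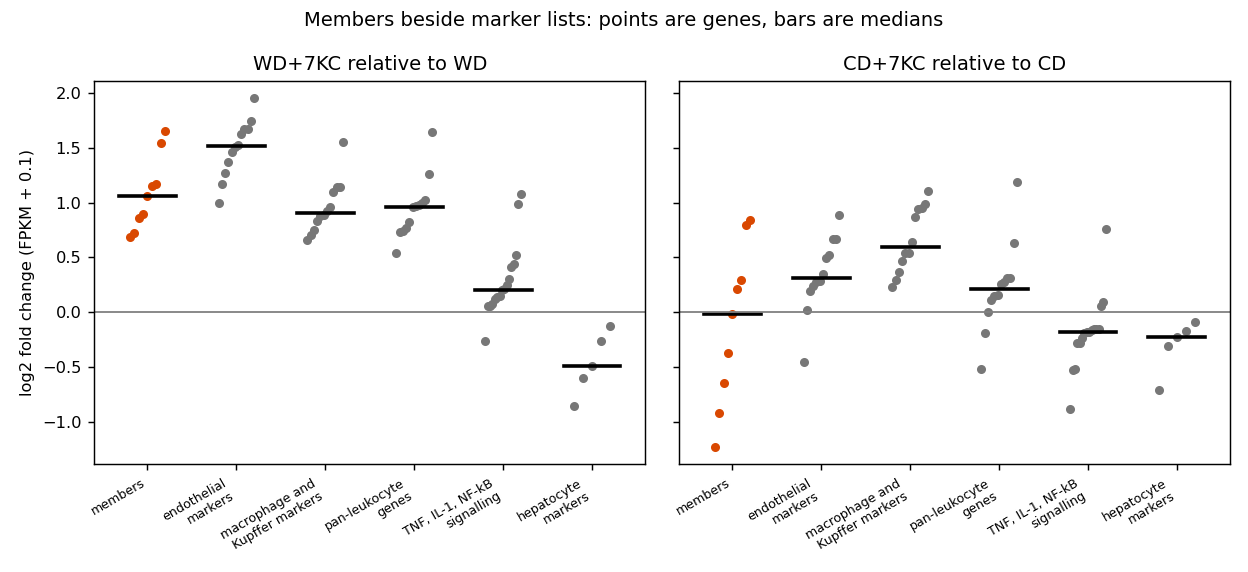
Log2 fold change of FPKM + 0.1 (vertical axis) for the 9 members (orange) and for the genes of 5 lists (grey) in WD+7KC relative to WD (left) and CD+7KC relative to CD (right). Points are genes and black bars medians. On the left the members' median of 1.06 lies between the endothelial (1.52) and macrophage (0.91) medians, and on the right the members spread from -1.23 to 0.84.

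The rest of the adhesion machinery was read from lists chosen by function. Of 12 other integrin chains, 10 were higher in WD+7KC relative to WD, the median being 0.47, and 1 was past 1, Itgb7 with 1.49. Among those that averaged 1 FPKM or more, Itgax was highest with 0.88 and Itgav, a chain of matrix receptors, lowest with -0.055, or 0.16 after rescaling to equal sums. Of 12 genes tested that encode selectin ligands or the enzymes that build them, 11 were higher, with a median of 0.65, and 4 were past 1: Podxl with 1.5, St3gal6 with 1.43, Fut7 with 1.31 and Selplg with 1.10. St3gal4, St3gal6, Fut4, Fut7 and B4galt1 encode enzymes that build the sugars selectins bind, and they differed: St3gal4, the lowest of the list among genes that averaged 1 FPKM or more, stood at 44.7 FPKM in WD and 46.6 in WD+7KC (0.06 on the log2 scale), B4galt1 was at 0.20 and Fut4 at -0.54. The Fut7 value rests on 1.2 reads for WD and 7.2 for WD+7KC, and that of Fut4 on 6.7 and 4.5. Selplg measured 0.945 FPKM for CD, 1.13 for CD+7KC, 1.85 for WD and 4.07 for WD+7KC, so that the order of its levels was that of Itgb2 and not that of Selp.

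Of 15 genes that activate integrins or anchor them inside the cell, 11 were higher in WD+7KC than in WD, but the median was only 0.084. Past 1 were Vav1, a signalling gene of blood cells, with 1.23, and Cytip with 1.43 and Fyb with 1.01. The lowest of those that averaged 1 FPKM or more was Tln2, a talin that links integrins to actin, with -0.16, or 0.033 after rescaling to equal sums. Of 13 endothelial junction and transmigration genes tested, 12 were higher, with a median of 0.96, and 6 were past 1. Pecam1 measured 6.46 FPKM for CD, 7.92 for CD+7KC, 5.98 for WD and 12.7 for WD+7KC. The highest was Ackr1, the chemokine-binding receptor of venules, with 0.381 FPKM for CD, 1.05 for CD+7KC, 0.111 for WD and 4.31 for WD+7KC, the WD value resting on 1 read. Cd99l2, with 0.11, was lowest among those that averaged 1 FPKM or more.

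Genes of the TNF, IL-1 and NF-κB route, which induces Icam1, Vcam1 and Sele in endothelium, were higher in 15 of 16 cases in WD+7KC than in WD, but by little, with a median of 0.20. The highest was Il1a with 1.08, which went from 1.55 FPKM in WD to 3.39 in WD+7KC, and the lowest was Nfkbia, an inhibitor that NF-κB itself induces, with -0.26, or -0.047 after rescaling. Tnf measured 0.324 FPKM for CD, 0.129 for CD+7KC, 0.151 for WD and 0.397 for WD+7KC, so that the higher pair, CD and WD+7KC, was the same as for Selp and Sele. These Tnf levels rest on 2.1 to 6.9 reads, too few to order them. In CD+7KC relative to CD, 3 of the 16 were higher, with a median of -0.18.

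The genes whose pattern was most like that of a member were found by the root-mean-square difference between centred log2 values over the 4 libraries, among 10685 other genes that averaged 1 FPKM or more. This could be done for the 5 members that reach that level. For Icam2 the nearest was Clec4g, a lectin gene of sinusoidal endothelium, at 0.022, followed by Npr1 and Mlxip at 0.11. For Itgal it was Irf8, a transcription factor gene of myeloid and lymphoid cells, at 0.014, then Oxct1 and 4632428N05Rik at 0.025 and 0.026. For Vcam1 it was Parvb at 0.032, then Ifit2 and Ly9, for Icam1 it was G6pdx at 0.037, then Ifi204 and Ppp1r9b, and for Itgb2 it was Cyp17a1 at 0.040, then Lrrc25 and B430306N03Rik. With 4 libraries many genes come close: the number within 0.25 was 54 for Itgb2, 64 for Icam2, 138 for Vcam1, 232 for Itgal and 385 for Icam1. Among these 5 members Icam1 and Itgal were nearest to each other, at 0.15, and Icam2 lay farthest from the others, at 0.53 to 0.72. Selp, Sele, Itgam and Itga4 were not compared in this way.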

How the data were processed

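RNA from the liver of ob/ob mice was sequenced by the authors from TruSeq stranded mRNA libraries as 75-base single-end reads, mapped to mm10 with TopHat2 2.0.13, Bowtie2 2.2.3 and SAMtools 0.1.19, and summarised with Cufflinks 2.2.1. The deposited values are FPKM, 1 per gene symbol and library. The gene annotation and Cufflinks options are not given in the sources used here, and FPKM depends on both, and on a few very abundant liver transcripts. Groups were taken from the sample titles, with 1 library each.

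From these values, log2 ratios of FPKM + 0.1 were computed for every gene that was not at 0 FPKM in both libraries of a comparison, and counted past 1 or -1. Depth was estimated from 16876 genes with a single RefSeq mRNA linked to GENCODE vM21, using those longer than 2000 bases and the transcript length minus 200 bases. Within 0.1 of a whole read lay 71.6% to 73.6% of low values. Shares over all genes whose interval excludes 1 take those with a linked RefSeq mRNA, above 0 in the libraries compared and above 3 reads in 1. Intervals are exact (Clopper-Pearson for ratios, Poisson for levels, conditional for ratios of ratios) at 95%. No fold is given where both libraries held at most 3 reads or either was listed at 0.

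The members, gene lists, thresholds and motifs were chosen with earlier results of these data known. Genes named beside the members are partners and counter-receptors, the highest and lowest genes of each pathway list that averaged 1 FPKM or more, and the 3 genes nearest to each member. St3gal6, Fut7, Fut4, B4galt1, Cytip, Fyb, Tnf and Spp1 were named after their values were seen. Ly6g, Trac and Cd99 were not analysed here, and 1 further gene, a partner by the rule, is not reported here. Alternatives were pseudocounts of 1, 0.01 and none, a filter of at least 1 FPKM, 4 other scalings, a threshold of 1.5-fold and CD in place of WD as reference, the last added after seeing the data. On simulated reads for 8341 genes in WD and WD+7KC, 100% of 200 changed genes had the right direction and 93.5% of intervals covered the true ratio. The changed genes were drawn from those with at least 1 FPKM in WD, with counting error as the only noise. The check therefore does not cover Selp, Sele, Itgam and Itga4, which were below that level in WD, nor variation between mice. Changes as small as those of Icam1 and Vcam1 in WD+7KC relative to WD were not simulated. Python 3.11.15, numpy 2.4.6, pandas 2.3.3, scipy 1.17.1 and matplotlib 3.10.9 were used.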

Additional observations from a re-analysis of the deposited data

Results flagged for a closer look

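For 5 members the log2 fold change with 7KC was positive under the western diet and negative under chow, with 1 library in each group. The same signs were found in 21.7% of the 16408 genes above 0 in any library. The value under the western diet minus the value under chow was 2.57 for Selp, 2.12 for Sele, 1.79 for Itgam, 1.10 for Itga4 and 0.70 for Icam1. For Icam1 the value under chow was -0.017 and became 0.023 after rescaling to equal sums, so that the opposite signs depend on scaling there. The differences were not tested against variation between mice. For genes picked by these signs the ratio of ratios is above 1 by construction, so it is no separate support. Its exact counting interval lay above 1 for each of these 5, and for 12.7% of the 13067 genes with an interval.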

How the results depend on the processing

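No paired analysis was possible because each group had 1 library, and no library could be left out of a group. Of the values of single members under the alternatives set at the start, 273 stayed within the 95% counting interval of the member and 7 did not. For low members that interval is wide: Sele in WD+7KC relative to WD was 0.89 and became 0.22 with a pseudocount of 1, and counts as staying. Under the alternatives set at the start, 1 member value changed sign, Icam1 in CD+7KC relative to CD. With a pseudocount of 1, which shrinks low values by construction, the members past 1 or -1 numbered 2 in place of 5 in WD+7KC relative to WD (0.889% of all genes above 1), 0 in place of 1 in CD+7KC relative to CD and 1 in place of 4 in WD relative to CD (0.962% above 1), and the median in WD+7KC relative to CD+7KC was 0.71 in place of 1.30. With the threshold at 1.5-fold the members past it numbered 9 higher in WD+7KC relative to WD (14.2% of all genes) and 5 in CD+7KC relative to CD, 2 higher (10.4%) and 3 lower (7.11%). In that last comparison 2 were past -1 without a pseudocount (4.32% of genes), and 0 of the 6 members with at least 1 FPKM were past 1 or -1. With CD in place of WD as the reference for WD+7KC, 6 members were above 1 (9.85% of genes) and the median was 1.28. Selp and Sele then changed sign, to -0.16 and -0.22, with counting intervals of the ratio that included 1. Rescaling to equal sums gave 7 members above 1 in WD+7KC relative to WD (8.7% of genes). Rescaling also put the counting interval above 1 for Vcam1 in CD+7KC relative to CD (1.02 to 1.57) and for Icam2 in WD+7KC relative to CD+7KC (1.08 to 2.28). Depth limits Sele most, with 26.9 reads over the 4 libraries.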
